A study of Mus musculus with 12 samples.

Results

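The genes described here are 45 genes of fatty acid oxidation in mouse liver and targets of the nuclear receptor PPAR-alpha, found by symbol among the 25676 genes of the deposited expression table. They comprise 4 acyl-CoA synthetases, 4 genes of the carnitine shuttle, 11 enzymes of the mitochondrial spiral, 3 electron transfer genes, 7 peroxisomal genes, 6 acyl-CoA thioesterases, 1 gene of ketone body synthesis, 5 regulators and 4 genes of lipid handling. RNA was sequenced from whole livers of 12 mice on a C57BL/6 background, aged 3 to 4 months, in 4 groups of 3: wild-type (WT) females, WT males, Foxa3-Cre YAP1 KO females and Foxa3-Cre YAP1 KO males. In the KO mice *Yap1*, a transcriptional co-activator that acts through the TEAD factors, was removed by Cre recombinase under control of *Foxa3*, a gene switched on in the embryonic endoderm that gives rise to both hepatocytes and bile duct cells. The labels give no Cre or floxed allele for the WT mice.

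Liver oxidizes fatty acids in mitochondria and in peroxisomes. Long-chain fatty acids are activated to acyl-CoA esters and enter mitochondria as carnitine esters, where repeated cycles of dehydrogenation, hydration, dehydrogenation and thiolysis release acetyl-CoA, which liver can turn into ketone bodies. Peroxisomes shorten very long and branched chains by a similar spiral. PPAR-alpha, encoded by *Ppara*, is activated by fatty acids, above all in fasting, and drives the transcription of genes in both organelles together with fatty acid binding, thioesterase and ketogenic genes.

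The depth, estimated from the steps between low values, was 19643305 to 27815723 reads per library. *Yap1* stood at 23 to 34.9 TPM (transcripts per fixed library sum, adjusted for transcript length) in the WT livers and 0.994 to 3.11 in the KO livers. Summed over 11 hepatocyte genes, deposited TPM was 122600 to 158100 in WT and 117500 to 148100 in KO, and 1 of these genes was called higher and 3 lower. The median log2 difference of the 11 was 0.209 deposited and -0.256 after the rescaling described below. On rescaled values alone 1 of them was higher and 4 lower, and the rescaled sum was not computed. Of the marker genes of other cells, 6 of 6 tested macrophage genes, 4 of 7 stellate cell genes and 4 of 6 bile duct genes were called higher in KO, and 1 bile duct gene lower. By the same rule, given below, 20.9% of all tested genes were called higher and 4.81% lower. The summed ranges were 57.2 to 201.6 TPM in WT and 383.2 to 754.5 in KO for macrophages, 21.8 to 43.9 and 108.1 to 242.9 for stellate cells, and 28.1 to 62.4 and 280.6 to 741.1 for bile duct cells. Of the endothelial markers 0 of 5 were called higher and 1 lower, and 0 were called either way among 4 lymphocyte, 2 neutrophil and 3 red cell genes. The part of other cell types in the results below was not tested, and in whole liver fewer cells of a type and less RNA per cell cannot be told apart. WT male 2 had the lowest value among the 6 WT livers for 27 of the 45 genes and WT female 2 the highest for 27. WT male 2 also differs in its labels, which give it a letter after the animal number and a library number outside the run of the other 11, without saying what these mark. Left out, it raised the number of genes that fell from 15 to 22.

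TPM gives each transcript's share of its library, so a change in some transcripts can move the values of all others. On the deposited values the median of the 12278 tested genes was 0.351 higher in KO on the log2(TPM + 1) scale. After rescaling each library by its median ratio to the mean library, that shift was -0.0365. Both scales are therefore given, deposited first, and "rose" or "fell" is used only where limma's adjusted p was under 0.05 in the same direction on both.

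On that rule 15 of the 45 genes fell in KO and 3 rose, where 4.81% of all tested genes fell and 20.9% rose (25.7% either way). *Ppara* itself, the fatty acid binding protein *Fabp1*, the synthetase *Acsl1*, the cytosolic thioesterase *Acot1* and the peroxisomal isomerase *Eci2* were among those that fell. *Crat*, *Acot2* and *Pdk4* rose. On deposited values alone 6 were higher and 15 lower, against 50.1% and 4.82% of all genes, and on rescaled values alone 3 were higher and 31 lower, against 20.9% and 18.7%. The median over the 45 genes was a log2 difference of -0.22 deposited and -0.68 rescaled. A negative difference was found for 32 of the 45 deposited (17.3% of all genes) and for 38 rescaled (53.7% of all genes). In 7 genes every KO liver lay below every WT liver on deposited values, where 1.88% of all genes did so, and in 2 (*Crat* and *Acsl4*) every KO liver lay above, where 28.7% did. Together the 45 genes made up 1.52% ± 0.47 of the summed TPM in WT (SD, n = 6) and 0.804% ± 0.0963 in KO (SD, n = 6). Most of that gap lay in *Fabp1*: without it the share was 0.76% ± 0.122 in WT (SD, n = 6) and 0.645% ± 0.0366 in KO (SD, n = 6).

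**Figure D1:**
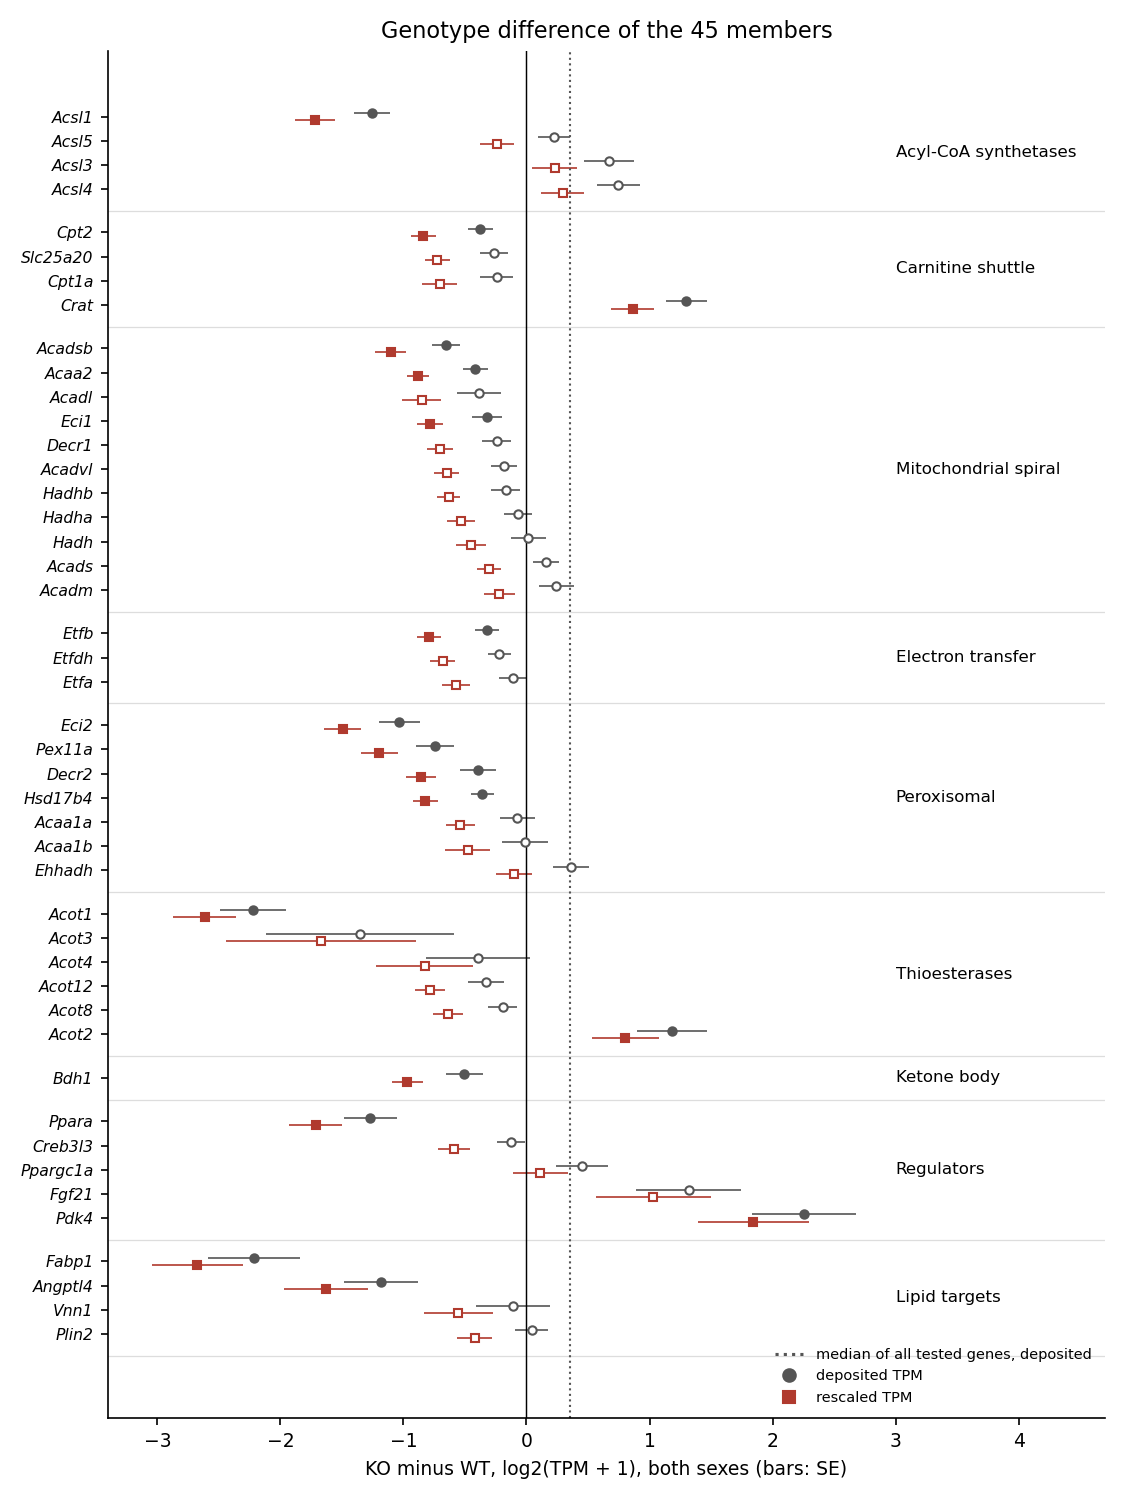
Difference between KO and WT for each of the 45 genes on the log2(TPM + 1) scale (x axis), grouped by role, from deposited (circles) and rescaled (squares) values, with SE bars; filled symbols mark genes past the threshold on both. Most genes lie left of 0 and left of the dotted median of all tested genes at 0.351, and *Crat*, *Acot2* and *Pdk4* are the filled genes on the right.

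*Ppara*, on chromosome 15 (GRCm38, positions 85734983 to 85802819, GENCODE mouse release 21), fell in KO of both sexes. Its TPM was 31.8, 51.7 and 36.5 in WT females and 22.4, 36.9 and 55.2 in WT males, against 10.6, 14.8 and 17.8 in KO females and 12.5, 20.9 and 15.2 in KO males. The lowest WT liver, WT male 1, was above the highest KO liver, KO male 2. The log2 difference was -1.27 ± 0.214 (SE; limma adjusted p = 0.000257) deposited and -1.71 (adjusted p = 4.17e-05) rescaled, and every KO liver was below every WT liver on both scales. *Ppargc1a*, a co-activator of PPAR-alpha, was low throughout, with 1.73 to 4.49 TPM in WT and 2.43 to 6.18 in KO, and did not pass the test (limma adjusted p = 0.0868 deposited and 0.724 rescaled). *Creb3l3*, which encodes a fasting-responsive liver transcription factor, overlapped between genotypes at 184 to 280.2 and 182.6 to 276 TPM, with log2 differences of -0.13 and -0.59. It passed as lower only after rescaling (limma adjusted p = 0.00285).

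*Pdk4*, a kinase that shuts off pyruvate dehydrogenase and so spares glucose (chromosome 6, 5483351 to 5496309), rose. The WT females had 2.53, 2.87 and 2.22 TPM and the WT males 21.2, 5.799 and 1.604, while KO females had 17.98, 39.7 and 21.9 and KO males 20.3, 18.4 and 27.3. A single WT liver, WT male 1, lay within the KO range, and the other 5 were under every KO liver. Fitted on the log2 scale, KO minus WT was 2.26 ± 0.421 (SE; limma adjusted p = 0.000559) deposited and 1.84 (adjusted p = 0.00571) rescaled. *Fgf21*, a hormone that liver secretes in fasting, was scarce and variable, with 0.0805 to 3.07 TPM in WT and 0.724 to 10.47 in KO. These values rested on 1 to 32 estimated reads per WT library and 6 to 96 per KO library. Its log2 difference of 1.32 passed the test on deposited values (limma adjusted p = 0.0184) and not on rescaled values (1.03, adjusted p = 0.095). *Pdk4* and *Ppara*, both counted as parts of the same program, thus moved in opposite directions.

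*Fabp1*, the main fatty acid binding protein of the hepatocyte cytosol, was the most abundant of the 45 genes and fell. The TPM was 7358, 12990 and 4407 in WT females and 7829, 2805 and 10260 in WT males. In KO females it was 2572, 1065 and 1460 and in KO males 1375, 2290 and 761. All 6 KO livers were under the lowest WT liver, WT male 2, although the WT values themselves spread widely. This gave a log2 difference of -2.21 ± 0.373 (SE; limma adjusted p = 0.000259) deposited and -2.68 (adjusted p = 8.95e-05) rescaled, or a 4.63-fold lower level deposited. *Fabp1* is shown with its promoter because it was the only gene of the 39 with a RefSeq promoter (GRCm38.p6, 250 bases before to 50 after the start) that held AGGNCANAGGNCA, the direct repeat recognized by PPAR and RXR pairs, searched on both strands. The match is 2.56% of these 39 genes, and 122 of 27025 genes (0.451%) had one. The 120 bases before the start are printed below on the plus strand (chr6:71199759-71199878), with the match to the repeat, read on the opposite strand at -67 to -55, in capitals.
Fabp1: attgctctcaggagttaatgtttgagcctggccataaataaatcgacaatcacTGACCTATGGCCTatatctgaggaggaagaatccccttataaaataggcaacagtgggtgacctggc
The core TEAD motif GGAATG, searched on both strands in the same windows, was present in 6 of the 39 promoters (15.4%; *Acsl1*, *Cpt1a*, *Slc25a20*, *Etfb*, *Ehhadh* and *Pex11a*) and in 16.6% of all promoters. Of those 6 genes, *Acsl1*, *Etfb* and *Pex11a* fell and the other 3 did not pass on both scales. No promoter held both motifs.

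*Angptl4*, a secreted inhibitor of lipoprotein lipase (chromosome 17, 33773750 to 33781830), fell. Its TPM was 41.2, 46.2 and 59.1 in WT females and 83.7, 54.4 and 60.1 in WT males. The KO females had 15.3, 32.1 and 29.4 and the KO males 38.0, 36.6 and 9.57. Every KO liver was below every WT liver, and KO female 1 and KO male 3 were far under the other KO livers. The log2 difference was -1.18 ± 0.301 (SE; limma adjusted p = 0.00484) deposited and -1.63 rescaled. *Vnn1*, a pantetheinase, overlapped at 13.9 to 57.9 TPM in WT and 15.1 to 37.3 in KO, with a log2 difference of -0.11 deposited over both sexes. *Plin2*, a coat protein of lipid droplets, had 238 to 362 TPM in WT and 239 to 328 in KO, with log2 differences of 0.04 and -0.42. It passed as lower only after rescaling (limma adjusted p = 0.0316).

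**Figure D2:**
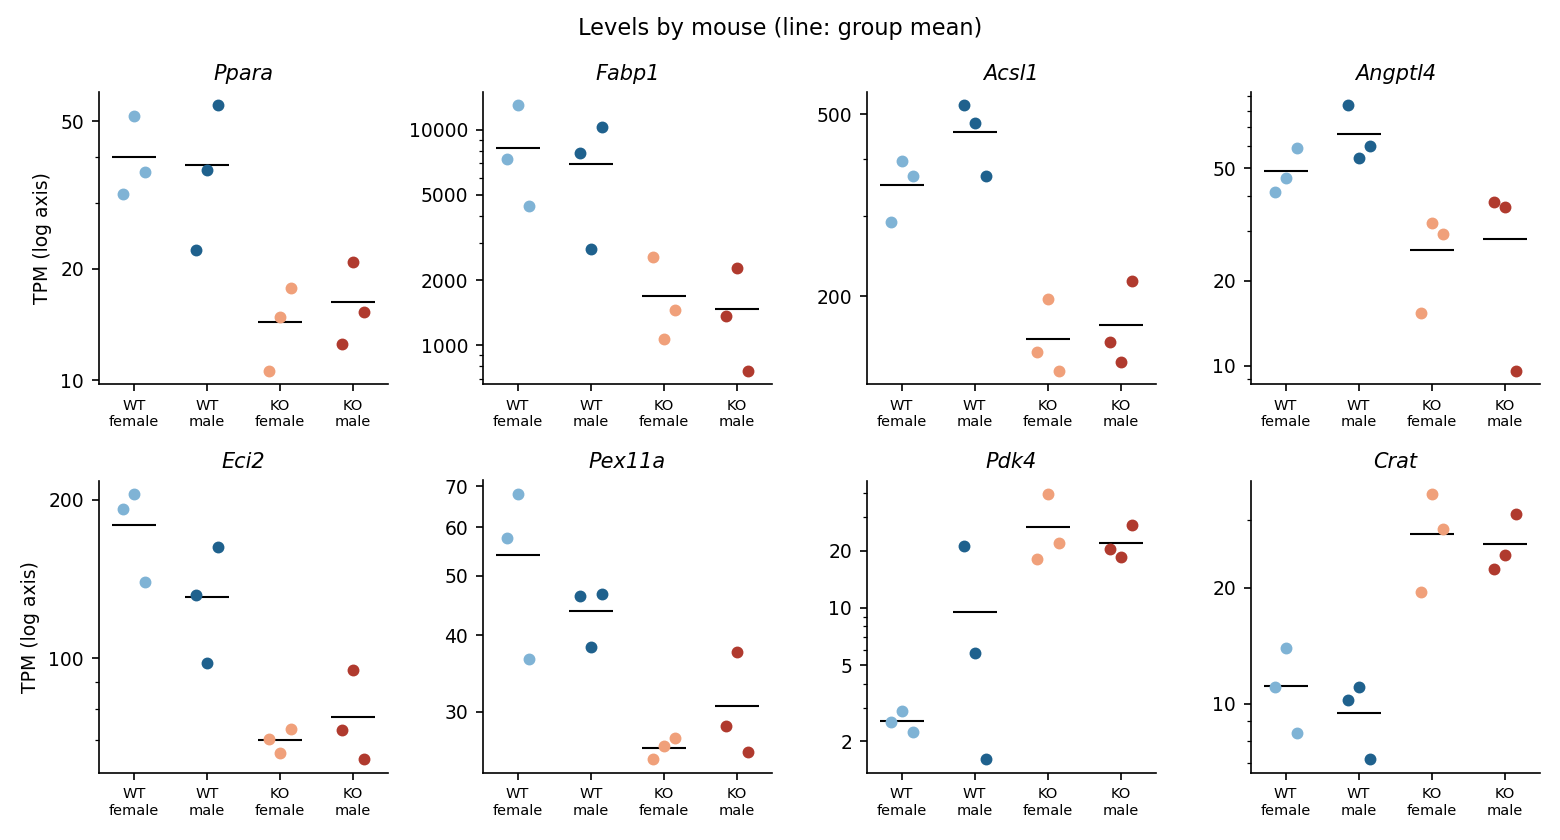
TPM on a log axis for 8 genes in each mouse by group (points), with the group mean (line), n = 3 mice a group. In *Ppara*, *Fabp1*, *Acsl1*, *Angptl4* and *Eci2* all 6 KO points lie below all 6 WT points; in *Pdk4* 1 WT male sits among the KO points at 21.2 TPM.

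Activation of long-chain fatty acids differed by gene. *Acsl1*, the main long-chain acyl-CoA synthetase of liver (chromosome 8, 46471037 to 46536051), fell, from 290.2, 395 and 366 TPM in WT females and 523, 479.5 and 366 in WT males to 151, 197.1 and 137 in KO females and 159, 144 and 217 in KO males. The groups did not overlap, and the log2 difference was -1.26 ± 0.146 (SE; limma adjusted p = 1.1e-05) deposited and -1.72 rescaled. *Acsl3* and *Acsl4*, the isoforms linked with lipid droplets and with arachidonate, had higher deposited values, with log2 differences of 0.67 and 0.75 (limma adjusted p = 0.0127 and 0.00282). After rescaling these were 0.23 and 0.29 (adjusted p = 0.341 and 0.197), so neither counts as a rise. *Acsl4* went from 20.7 to 33.5 TPM in WT to 35.5 to 74.7 in KO. *Acsl5* had log2 differences of 0.22 and -0.24 and passed on neither scale.

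In the carnitine shuttle, 1 gene rose, 1 fell and 2 did not pass on both scales. *Crat*, the carnitine acetyltransferase that exchanges acetyl groups between coenzyme A and carnitine (chromosome 2, 30400471 to 30415813), rose from 11.1, 13.96 and 8.37 TPM in WT females and 10.2, 11.03 and 7.17 in WT males to 19.5, 35.1 and 28.4 in KO females and 22.4, 24.3 and 31.1 in KO males. Each KO liver was above each WT liver on deposited values, but the rescaled ranges, 8.46 to 15.2 in WT and 15.2 to 31.3 in KO, touched. Fitted on the log2 scale, KO minus WT was 1.30 ± 0.167 (SE; limma adjusted p = 2.68e-05) deposited and 0.86 (adjusted p = 0.00188) rescaled. *Cpt2*, the inner-membrane carnitine palmitoyltransferase, fell from 96.5 to 123 TPM (median 109) to 73.9 to 99.3 (median 82.2), a log2 difference of -0.38 ± 0.101 (SE; limma adjusted p = 0.0065) deposited and -0.84 rescaled. *Cpt1a*, the outer-membrane enzyme that controls entry into the mitochondrion, had 90.3 to 155 TPM in WT and 80.5 to 125 in KO. Its log2 difference was -0.24 (limma adjusted p = 0.141) deposited and -0.70 (adjusted p = 0.00179) rescaled, so its call depends on the scale. The carrier *Slc25a20* behaved likewise, with -0.26 and -0.72 (limma adjusted p = 0.0661 and 0.000111).

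Of the 11 enzymes of the mitochondrial spiral, 3 fell and 0 rose. *Acaa2*, the thiolase of the last step, fell from 735 to 1116 TPM (median 922) in WT to 656 to 719 (median 687) in KO. These ranges did not overlap, and the log2 difference was -0.41 ± 0.0994 (SE; limma adjusted p = 0.00329) deposited and -0.88 rescaled. *Acadsb*, the dehydrogenase of short and branched chains, fell from 27.9 to 48.7 TPM to 22.03 to 28.1, with log2 differences of -0.65 ± 0.112 (SE; limma adjusted p = 0.000279) and -1.10. *Eci1*, the mitochondrial isomerase for unsaturated chains, fell with log2 differences of -0.32 and -0.78 (limma adjusted p = 0.0395 and 7.66e-05). The *Eci1* call was lost when any 1 of 10 of the 12 libraries was left out, all but WT male 2 and KO male 2, with a limma adjusted p of 0.0518 to 0.0963 on deposited values.

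The remaining 8 spiral enzymes did not pass on both scales. They include *Acadm*, the medium-chain dehydrogenase, at 160 to 351 TPM in WT and 273 to 350.1 in KO, with log2 differences of 0.24 and -0.22 (limma adjusted p = 0.166 and 0.185). *Hadha*, the large subunit of the trifunctional protein, had 149 to 190.6 TPM in WT and 123 to 190.1 in KO. Its ranges overlapped as deposited and separated after rescaling, with log2 differences of -0.07 (limma adjusted p = 0.609) and -0.54 (adjusted p = 0.00229). The small subunit *Hadhb* was close to it at -0.17 and -0.63. Of the 50-base stretches of *Hadhb* 19.7% also occur in other annotated genes, so its value is uncertain. *Acadvl*, *Acadl*, *Acads*, *Hadh* and *Decr1* spanned deposited log2 differences of -0.39 (*Acadl*) to 0.16 (*Acads*) and, like *Hadha* and *Hadhb*, passed as lower only after rescaling. The median of the 11 enzymes was -0.18 deposited and -0.65 rescaled.

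Electrons from the acyl-CoA dehydrogenases pass through the flavoprotein of *Etfa* and *Etfb* to the oxidoreductase of *Etfdh*. *Etfb* fell from 414 to 741 TPM (median 577) to 377 to 505 (median 449.9), with log2 differences of -0.32 ± 0.0977 (SE; limma adjusted p = 0.0129) and -0.79. The ranges overlapped, because WT males 1 and 2 were as low as the KO livers. Of its 50-base stretches 44.8% also occur in other annotated genes, so its value is uncertain. *Etfa* and *Etfdh* had deposited differences of -0.11 and -0.22 and rescaled ones of -0.57 and -0.68, of which only the latter passed.

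Among the 7 peroxisomal genes, 4 fell and 0 rose. *Eci2*, an isomerase of unsaturated acyl-CoA found in peroxisomes and mitochondria (chromosome 13, 34977748 to 35027096), had 191.8, 205.4 and 139.5 TPM in WT females and 132, 97.9 and 163 in WT males. In KO females it had 70.3, 65.9 and 73.2 and in KO males 72.98, 94.8 and 64.2. All KO livers were under all WT livers, though WT male 2 and KO male 2 nearly met. This gave a log2 difference of -1.03 ± 0.164 (SE; limma adjusted p = 0.000158) deposited and -1.49 rescaled. *Pex11a*, which promotes the division of peroxisomes (chromosome 7, 79735957 to 79743131), had 57.6, 68.1 and 36.5 TPM in WT females and 46.3, 38.3 and 46.8 in WT males, and 25.1, 26.4 and 27.2 in KO females and 28.5, 37.6 and 25.8 in KO males. It fell by 0.74 ± 0.157 (SE; limma adjusted p = 0.00141) deposited and 1.195 rescaled on the log2 scale, with KO male 2 slightly above WT female 3.

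*Hsd17b4*, the D-bifunctional protein needed for branched chains and bile acid precursors, fell from 214 to 274 TPM to 166 to 229, with log2 differences of -0.36 ± 0.093 (SE; limma adjusted p = 0.00525) and -0.82. *Decr2*, the peroxisomal dienoyl-CoA reductase, fell with log2 differences of -0.40 and -0.86 (limma adjusted p = 0.0362 and 0.000128). The *Decr2* call was lost without any 1 of 7 libraries (WT females 1, 2 and 3, WT male 3, KO females 1 and 3, and KO male 1), with a limma adjusted p of 0.0629 to 0.0885 on deposited values. *Ehhadh*, the L-bifunctional enzyme and a classical PPAR-alpha target, did not pass the test on either scale. It had 113 to 226 TPM in WT and 181.8 to 247 in KO, with log2 differences of 0.36 (limma adjusted p = 0.0539) and -0.10 (adjusted p = 0.606). The thiolases *Acaa1a* and *Acaa1b* were at -0.07 and -0.01 deposited and -0.54 and -0.48 rescaled. *Acaa1a* passed as lower only after rescaling (limma adjusted p = 0.00307) and *Acaa1b* on neither scale. *Acaa1b* is abundant, at 493 to 1170 TPM in WT and 628 to 1162 in KO. It shares 30.5% of its 50-base stretches with *Acaa1a*, so reads may be split between the pair.

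To compare the organelles within a liver, which does not depend on the scaling, the mean log2(TPM + 1) of the 7 peroxisomal genes was subtracted from that of the 11 spiral enzymes. The difference was -0.0267 ± 0.0485 in WT (SD, n = 6) and 0.111 ± 0.108 in KO (SD, n = 6), and WT livers ranged from -0.0911 to 0.0327 and KO livers from -0.00523 to 0.245. The ranges overlapped: KO female 1 and KO male 2 lay among the WT livers and the other 4 KO livers above all of them. Averaged over the sexes, KO minus WT was 0.138. Without *Eci2* and *Pex11a*, the peroxisomal genes with the largest falls, it was -0.0885, KO minus WT, a shift whose direction the choice of these genes fixes. The median differences of the role groups were close, at -0.18 for the spiral and -0.36 for the peroxisomal genes deposited, and -0.65 and -0.82 rescaled. On both scales 3 of 11 spiral enzymes and 4 of 7 peroxisomal genes fell, where 4.81% of all genes did. On rescaled values alone 10 of 11 and 5 of 7 were lower, where 18.7% of all genes were, so the order of these shares turned with the scale while the peroxisomal median was the lower on both. The difference between them was not tested.

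**Figure D3:**
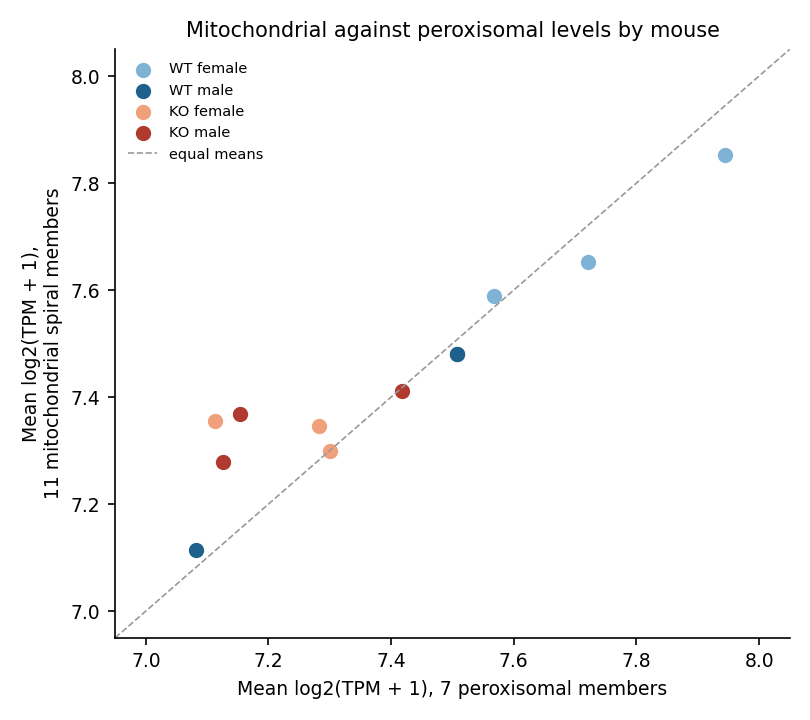
Mean log2(TPM + 1) of the 11 mitochondrial spiral enzymes (y axis) against the 7 peroxisomal genes (x axis), 1 point a mouse, with the line of equal means; WT males 1 and 3 coincide at 7.51 and 7.48. The WT mice follow the line, and 4 KO mice lie above it while KO female 1 and KO male 2 lie on it.

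The thioesterases, which split acyl-CoA into fatty acid and coenzyme A, held both a steep fall and a rise. *Acot1*, *Acot2*, *Acot4* and *Acot3* are neighbours on the plus strand of chromosome 12 (*Acot2* at 83987861 to 83993873, *Acot1* at 84009490 to 84018371, *Acot4* at 84038379 to 84048601 and *Acot3* at 84052144 to 84060402). *Acot1*, the cytosolic enzyme, fell from 32.6, 54.5 and 15.7 TPM in WT females and 18.3, 11.7 and 12.8 in WT males to 5.13, 4.02 and 3.63 in KO females and 2.29, 4.997 and 2.68 in KO males. The highest KO liver was below the lowest WT liver. The log2 difference was -2.22 ± 0.269 (SE; limma adjusted p = 1.64e-05) deposited and -2.62 (adjusted p = 4.84e-06) rescaled, or 4.66-fold lower deposited.

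*Acot2*, the mitochondrial enzyme next to it, rose. Its TPM was 7.33, 10.1 and 6.08 in WT females and 3.57, 0.853 and 2.33 in WT males, against 12.3, 19.8 and 8.19 in KO females and 7.26, 7.85 and 12.5 in KO males. Male KO livers were above all male WT livers, while the females overlapped. Fitted on the log2 scale, KO minus WT was 1.18 ± 0.282 (SE; limma adjusted p = 0.0032) deposited and 0.80 (adjusted p = 0.0302) rescaled. The call over both scales was lost with no filter on low values. On rescaled values it was lost without any 1 of 7 libraries (WT males 2 and 3, WT female 3, KO males 1, 2 and 3, and KO female 2). *Acot1* and *Acot2* share sequence, with 13.6% of the 50-base stretches of *Acot1* and 24.5% of those of *Acot2* found in the other, so reads may be misplaced between them. The 120 bases before each start (RefSeq, GRCm38.p6, plus strand, chr12:84009382-84009501 and chr12:83987741-83987860) are shown because these neighbours moved in opposite directions. The 250 bases before the starts were 46.7% identical when aligned with gaps. The same measure gave 44.1% for *Acot3* and *Acot4*, 48.4% for *Acot1* and *Acot3* and 48.9% for *Acaa1a* and *Acaa1b*. No unrelated promoters were aligned, so the value cannot be read as particular to these neighbours.
Acot1: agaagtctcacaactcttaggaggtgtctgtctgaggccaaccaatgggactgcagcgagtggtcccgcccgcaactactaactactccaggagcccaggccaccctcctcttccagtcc
Acot2: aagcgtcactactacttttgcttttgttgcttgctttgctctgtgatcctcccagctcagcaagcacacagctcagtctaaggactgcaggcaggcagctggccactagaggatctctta
Neither promoter held AGGNCANAGGNCA or GGAATG on either strand.

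*Acot3*, a peroxisomal thioesterase, differed between the sexes in WT livers, where males minus females was -5.74 (limma adjusted p = 8.63e-05). In KO livers that difference was -1.11 (limma adjusted p = 0.859). The WT females had 126, 198 and 62.8 TPM and the WT males 0.636, 0.118 and 4.72, while the KO females had 7.47, 13.5 and 5.31 and the KO males 1.67, 2.27 and 7.88. Female WT livers were above all other livers, and the KO livers of both sexes lay between WT females and 2 of the 3 WT males. *Acot3* fell in females (-3.67 ± 0.613, SE; limma adjusted p = 0.000616) and had a difference of 0.96 ± 0.613 in males (SE; limma adjusted p = 0.208). The male effect minus the female effect was 4.64 ± 0.868 (SE; limma adjusted p = 0.0226 deposited and 0.0235 rescaled). It was the only one of the 45 genes called in this test, in which 0.432% of all genes were called in that direction. The call was lost without any 1 of 7 libraries (WT males 1 and 2, WT females 1 and 2, KO females 1 and 3, and KO male 3), with a limma adjusted p of 0.0525 to 0.0742, and the estimate lay between 4.11 and 4.58 in those fits. It was also lost with a pseudocount of 0.1 (limma adjusted p = 0.0812) and with no filter on low values (limma adjusted p = 0.0762). The 2 lowest WT male values rest on 5 and 24 estimated reads. Of its 50-base stretches 19.1% also occur in other annotated genes, so its value is uncertain too.

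*Acot4*, which hydrolyses dicarboxylic acyl-CoA in peroxisomes, had a similar order of levels. The WT females had 60.4, 105 and 43.9 TPM and the WT males 8.15, 5.98 and 19.9, while the KO females had 20.8, 27.3 and 17.6 and the KO males 15.3, 13.5 and 27.01. It fell in females (log2 difference -1.55, limma adjusted p = 0.00985), and the difference between the sexes in the genotype effect, 2.32, did not pass (limma adjusted p = 0.11). *Acot8* and *Acot12*, a peroxisomal and an acetyl-CoA thioesterase on other chromosomes, were at -0.19 and -0.33 deposited and -0.64 and -0.78 rescaled, and passed only after rescaling.

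**Figure D4:**
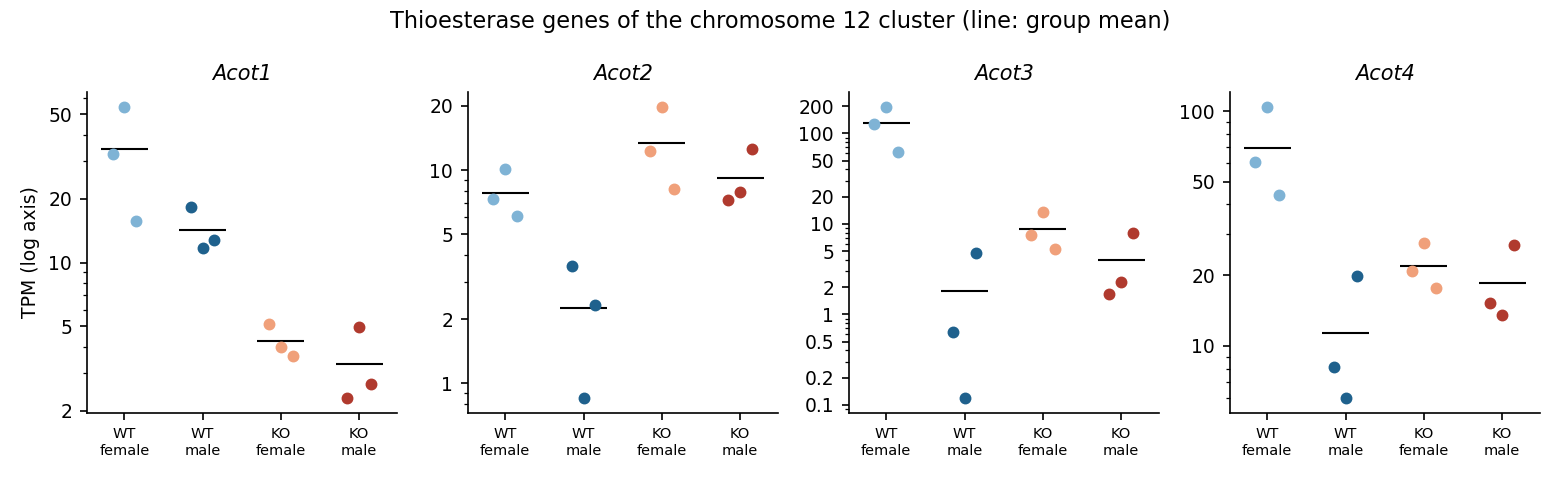
TPM on a log axis for 4 thioesterase genes of the chromosome 12 cluster in each mouse by group (points), with the group mean (line), n = 3 mice a group. *Acot1* is lower in all KO mice, *Acot2* is lowest in WT males, and *Acot3* and *Acot4* are highest in WT females at 62.8 to 198 and 43.9 to 104.5 TPM.

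Ketone body synthesis is represented by *Bdh1*, which reduces acetoacetate to beta-hydroxybutyrate (chromosome 16, 31422280 to 31458901). Its TPM was 143, 182 and 134 in WT females and 94.9, 65.7 and 108 in WT males, and 86.8, 91.8 and 80.2 in KO females and 73.1, 83.4 and 71.7 in KO males. It fell, with log2 differences of -0.51 ± 0.15 (SE; limma adjusted p = 0.0115) deposited and -0.97 rescaled, although WT male 2 was lower than all KO livers on deposited values. Of 7 other genes of ketone metabolism and transport, 2 fell and 1 rose, where 4.81% of all genes fell and 20.9% rose. *Acat1*, the mitochondrial acetoacetyl-CoA thiolase, fell, with log2 differences of -0.58 and -1.04. *Bdh2*, a cytosolic dehydrogenase, fell from 9.18 to 24.2 TPM to 2.83 to 8.17. *Oxct1*, which uses ketone bodies in other tissues, was at 1.14 to 2.598 TPM in WT and 3.73 to 8.23 in KO. It was the gene of that list that rose and was named after its value was seen.

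Taken by sex, 22 of the 45 genes fell and 3 rose in females, where 4.68% of all genes fell and 15.2% rose. In males 7 fell and 2 rose, where 2.81% fell and 13.9% rose. These counts leaned on single libraries. In females 12 fell without WT female 2, and 1 rose without any 1 of WT females 1 and 3 and KO females 2 and 3. In males 0 rose without KO male 3 and 1 rose without WT male 2, WT male 3 or KO male 1. The genes that fell in males were *Acsl1*, *Acadsb*, *Eci2*, *Acot1*, *Ppara*, *Fabp1* and *Angptl4*, of which all but *Angptl4* also fell in females. In females *Slc25a20*, *Acadl*, *Hadh*, *Decr1*, *Acot3*, *Acot4*, *Acot12* and *Vnn1* fell as well, none of which passed over both sexes. *Crat* rose in both sexes, *Acot2* in males, and *Pdk4* and *Fgf21* in females. On rescaled values alone 26 genes were lower in males and 30 in females (10.2% and 10.9% of all genes), so much of the gap in counts appears on the deposited scale, where the median of all genes was 0.441 higher in KO males and 0.272 higher in KO females. Since 1 gene passed the direct test of a difference, these unequal counts do not show that the genes as a group responded differently in the sexes. *Fgf21* had log2 differences of 2.13 in females and 0.51 in males (interaction, limma adjusted p = 0.564), and *Pdk4* 2.88 and 1.63 (interaction, limma adjusted p = 0.675).

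**Figure D5:**
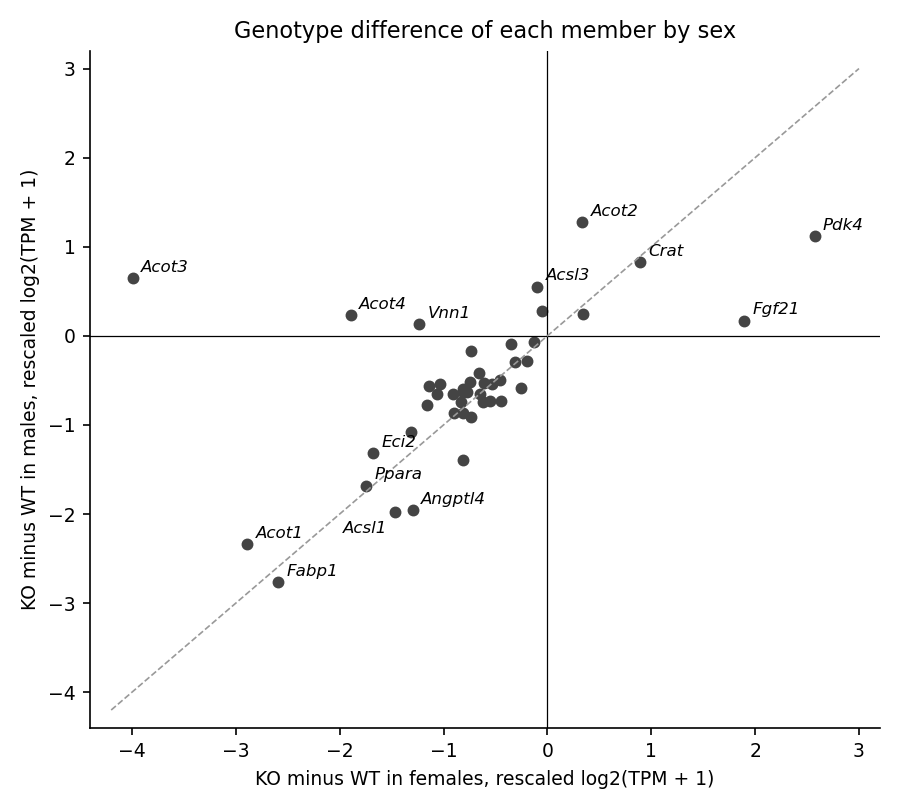
Difference between KO and WT on the rescaled log2(TPM + 1) scale in females (x axis) and males (y axis), 1 point for each of the 45 genes, with the line of equal differences. Most genes lie near the line in the lower left, and *Acot3*, at -3.99 in females and 0.64 in males, is the farthest from it.

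In WT livers, 4 of the 45 genes were lower in males than in females on both scales (*Hadh*, *Acot2*, *Acot3* and *Acot4*) and 0 were higher, where 2.25% and 1.12% of all genes were. On deposited values alone 10 were lower (4.60% of all genes), adding *Acadl*, *Etfb*, *Decr2*, *Acot12*, *Bdh1* and *Vnn1*. For *Hadh*, the short-chain hydroxyacyl-CoA dehydrogenase, WT females had 398, 434 and 372 TPM and WT males 249, 191.1 and 261, with a log2 difference of -0.79 ± 0.138 (SE; limma adjusted p = 0.00529). The count was 2 without any 1 of 4 libraries (WT females 1 and 2, WT male 2 and KO male 1). Between KO males and KO females limma called 0 of the 45 genes on either scale, where 0.0733% of all genes were called on both; 1 had an unadjusted p under 0.05 on deposited values and 0 on rescaled. For *Hadh* the KO females had 314, 307 and 301 TPM and the KO males 296, 329 and 301.

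Other genes of the pathway are read against the 4.81% of all tested genes that fell and the 20.9% that rose. Of 13 other tested mitochondrial genes, 5 fell and 0 rose, led by *Acsm3*, *Etfrf1* and *Acad11* at log2 differences of -0.66, -0.62 and -0.50 deposited. Of 30 other peroxisomal genes, 6 fell and 1 rose (*Acot6*, named after its value was seen). *Nudt7*, a peroxisomal hydrolase of coenzyme A, fell from 58.9 to 222 TPM (median 135) in WT to 13.2 to 35.2 (median 17.4) in KO, with a log2 difference of -2.63 ± 0.299 (SE; limma adjusted p = 9.49e-06). That value pools the sexes. In WT livers *Nudt7* was higher in males, by 1.46 deposited and 1.68 rescaled (limma adjusted p = 0.0197 and 0.00437). In KO livers the sex difference was -0.03 (limma adjusted p = 0.988). *Abcd3*, which imports acyl-CoA into peroxisomes, fell by 0.79 and *Hacl1*, the lyase of alpha oxidation, by 0.62 on the deposited log2 scale.

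Of 23 other PPAR target genes, 7 fell and 6 rose, again where 4.81% of all genes fell and 20.9% rose, so the share that rose is near that of all genes. *Fabp2* fell from 45.5 to 91.6 TPM to 20.8 to 32.1 and *Cyp4a32*, a member of the omega-hydroxylase family whose copies are near identical, by 1.44 on the deposited log2 scale. *Cyp4a14*, a sensitive PPAR-alpha target, ranged from 2.71 to 414 TPM in WT and 33.7 to 131 in KO and did not pass (limma adjusted p = 0.623 deposited). Without WT male 2 its log2 difference was -1.12 (limma adjusted p = 0.0417). In WT livers *Cyp4a14* was lower in males than in females, by a log2 difference of -4.28 deposited and -4.10 rescaled (limma adjusted p = 0.00457 and 0.00672). In KO livers that difference was -0.82 deposited (limma adjusted p = 0.884). Its estimated reads were 8517 to 10951 in WT females and 1382 to 3756 in KO females. In males they were 83 to 1735 in WT and 791 to 1247 in KO, so the value over both sexes pools unlike differences. It was not called in the test of a sex-dependent genotype effect. *Cd36*, a fatty acid transporter, rose from 6.35 to 26.7 TPM to 90.1 to 121, a log2 difference of 2.79 ± 0.257 (SE; limma adjusted p = 1.47e-06) deposited and 2.35 rescaled. The other genes of the list that rose, named after their values were seen, were *Ucp2*, *Cidec*, *Plin4*, *Plin5* and *Fabp4*. *Pparg*, the related receptor that drives fat storage, was the 1 of 16 other regulators that rose, from 2.77 to 7.69 TPM to 13.2 to 22.4 (log2 difference 1.89 ± 0.182, SE; limma adjusted p = 2.19e-06), and 0 fell. The fat cell genes *Adipoq*, *Plin1*, *Retn* and *Cfd* stood at 3.73, 1.25, 3.08 and 25.0 TPM in KO female 3; in the other 5 KO livers *Adipoq* was at most 0.15 TPM. *Cd36* and *Fabp4* are also expressed by macrophages and fat cells, whose part was not tested.

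The authors' deposited table gives its own KO against WT comparison, and its header does not name the mice used. At an FDR under 0.05, the authors' deposited table lists 26 of the 45 genes as lower and 4 as higher, among 1607 lower and 2591 higher of 17332 genes. The median log2 fold change over the 45 genes was -0.65 in the authors' deposited table. For *Acot3* the authors' deposited table lists a log2 fold change of 2.19 (FDR 0.01), where the difference over both sexes computed here was -1.35 and that in males 0.96. The values of the authors' deposited table for the 45 genes differed from the rescaled differences by a median absolute 0.0952 for males, 0.144 for both sexes and 0.244 for females, and over 12278 genes by 0.135, 0.166 and 0.246.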

How the data were processed

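RNA of whole livers from 12 mice, 6 WT and 6 KO with 3 of each sex per genotype, was analysed from the table the authors deposited. Its values are TPM, scaled by the authors to a fixed sum per library, per the file headers. The submitters' processing notes name the build GRCm38 and edgeR without saying what each was used for; the aligner, the counter and the use of strand are not given in the sources used here. The authors' own KO against WT fold change, log2 fold change and FDR p-value, rounded by the authors, were deposited in the same table and used for comparison only. Whole reads per gene could be recovered from steps in the deposited TPM (14578 of 14578 genes tried, within 0.05 reads), which gave 19643305 to 27815723 estimated reads per library.

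Groups came from the sample titles, and replicate numbers follow the order of deposition. Linear models were fitted to log2(TPM + 1) by lmFit and trended eBayes of limma 3.58.1 (R 4.3.3) over the 12278 genes whose mean TPM reached 0.5, with sex as a covariate for the genotype comparison and a model of the 4 group means otherwise. Tests were two-sided with Benjamini-Hochberg adjustment over all tested genes and a threshold of 0.05; all 45 genes were tested. Differences on this scale understate the change of genes with low values. Each fit was repeated after median-of-ratios rescaling over 12819 genes. The fit was tested on simulated data. No count model was used. The p-values measure the spread between these mice, which the labels number as separate animals.

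Genes were named by rule: in each role up to 4 genes past the threshold on both scales with the largest rescaled difference, every gene with a sex or interaction call, 12 genes fixed by name, and up to 3 genes of each list of other pathway genes plus *Cyp4a14* and 2 genes that are not reported here and are left out of the list counts. The 45 genes, the lists and the tests were chosen with earlier results of these data known. Alternatives were other pseudocounts (0.1 and 5), other filters, leaving out the 20 most abundant genes, a covariate for early animal numbers, and leaving out each library. Positions are from GENCODE mouse release 21 and promoters from RefSeq (GRCm38.p6), which matched 39 of the 45 genes. Stretches of 50 bases shared between transcripts were counted to mark genes that can share reads.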

Additional observations from a re-analysis of the deposited data

Results flagged for a closer look

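The direct test of a difference in the genotype effect between males and females, by limma with adjustment over all tested genes, called 5 of 136 tested genes of this pathway on deposited values, where 0.912% of all tested genes were called, each given as the male effect minus the female effect on the log2 scale. The 136 include the 2 genes that are not reported here, and neither is among the 5. *Acot3* differed by 4.64 (adjusted p = 0.0226), from a difference of -3.67 in females and 0.96 in males. *Abcd2*, a peroxisomal importer of acyl-CoA, differed by 2.74 (adjusted p = 0.0258), from -1.001 in females and 1.74 in males. *Scp2*, which encodes the sterol carrier protein and a peroxisomal thiolase, differed by -1.18 (adjusted p = 0.0169), from 0.54 in females and -0.63 in males. These 3 were also called after rescaling. *Slc16a7*, a monocarboxylate transporter, differed by 1.19 (adjusted p = 0.034) and *Cd36* by 1.5 (adjusted p = 0.0485), and after rescaling their adjusted p was 0.0764 and 0.187. In WT livers *Abcd2* had 23.1, 37.2 and 35.4 TPM in females and 2.01, 0.589 and 5.19 in males, and in KO livers 14.7, 15.1 and 15.5 in females and 9.19, 7.67 and 11.5 in males. *Scp2* had 822, 1116 and 917 TPM in WT females and 2798, 2912 and 2577 in WT males, and 1340 to 1418 in KO females and 1563 to 1964 in KO males. In both genes the KO livers lay between the WT sexes.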

How the results depend on the processing

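No paired analysis was possible because the labels give animal numbers that pair no mice between groups, and the replicate numbers follow the order of deposition. No gene called over both sexes changed direction under any alternative run. Among the genes not called, rescaling turned the deposited difference of *Acsl5* to -0.24, *Acadm* to -0.221, *Acads* to -0.304, *Hadh* to -0.448, *Ehhadh* to -0.101 and *Plin2* to -0.421. Leaving out the 20 most abundant genes turned *Hadh* to -0.06 and *Plin2* to -0.0327. Leaving out each library took *Hadha* from -0.141 to 0.00427, *Hadh* from -0.0891 to 0.0854, *Acaa1b* from -0.145 to 0.0981, *Vnn1* from -0.321 to 0.0895 and *Plin2* from -0.0212 to 0.113. The mean difference between mitochondrial and peroxisomal genes, which has no test, went from 0.138 to -0.0885 without *Pex11a* and *Eci2*, an alternative added after seeing the data, and was 0.102 to 0.169 when each library was left out. On deposited values alone the genes called higher in KO numbered 6 over both sexes and 7 in males, and those lower in WT males than WT females 10. On rescaled values alone those called lower numbered 31 over both sexes and 26 in males, and 1 gene was higher in WT males. Leaving out the 20 most abundant genes gave 6 higher over both sexes, 5 higher in males and 10 lower in WT males. With no filter on low values the call of *Acot2* over both sexes was lost and *Etfdh* gained one, 1 gene was higher in males and 0 passed the interaction, which also held 0 with a pseudocount of 0.1. A covariate for the early animal numbers (WT female 3 and KO female 1) left 2 genes lower in WT males. When each library was left out, the calls over both sexes ranged from 2 to 4 higher and from 13 to 22 lower (22 without WT male 2). In males they ranged from 0 to 2 higher, with 0 without KO male 3 and 1 without WT male 2, WT male 3 or KO male 1, and from 6 to 8 lower. In females they ranged from 1 to 3 higher, with 1 without WT female 1 or 3 or KO female 2 or 3, and from 12 to 24 lower, with 12 without WT female 2. The interaction ranged from 0 to 2 higher (2 without WT male 3). The sex difference in WT ranged from 0 to 1 higher (1 without WT male 3) and from 2 to 6 lower. Of the 18 calls over both sexes, *Eci1*, *Decr2* and *Acot2* were lost in some of these fits and the other 15 in none. Genes under a few TPM, such as *Fgf21* and *Acot3* in WT males, rest on few reads.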
